A study of Arabidopsis thaliana with 6 samples.

Results

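The seedlings described here were the solvent controls of a study of the explosive 2,4,6-trinitrotoluene (TNT) in Arabidopsis thaliana. They received dimethylformamide (DMF), the solvent in which TNT was given, and no TNT. Their 3 arrays were chosen by their titles, which name DMF-treated control seedlings as replicates 1, 2 and 3, out of 6 arrays in all. Plants were wild type, strain Col-0, stock N1093, with no transgene. The labels give whole plant as the tissue and 1.05 weeks as the developmental stage. After a day on plates, 10 seedlings were moved to a 500 ml flask with 100 ml of Murashige and Skoog medium holding 20 mM sucrose. They were shaken at 130 rpm for 13 days under a 16 h photoperiod, dosed with 60 µl of DMF, and taken for RNA extraction after 6 h. These 13 days are longer than the 1.05 weeks given as the stage, and both are printed as given. The labels do not say whether the replicates came from separate flasks, so the spread between arrays may be technical. No seedlings without DMF were analysed here, so the level without the solvent is not known, and roots and shoots were extracted together.

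Photosynthesis in a seedling draws on genes of both the plastid and the nucleus. The plastid genome encodes reaction centre proteins, cytochrome and ATP synthase subunits and part of the NADH dehydrogenase-like complex, mostly in clusters read as long shared transcripts, while the nucleus encodes the antenna proteins, the outer subunits, Rubisco activase and the enzymes of chlorophyll synthesis. Roots add their own programmes: hair cells express a particular set of wall-loosening enzymes, and the endoplasmic reticulum of Brassicaceae seedlings, roots above all, forms ER bodies filled with a beta-glucosidase. Genes of flowers, pollen, seeds and embryos are for the most part quiet at this stage.

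RNA was hybridised to Affymetrix ATH1 arrays, on which each transcript is read by a probe set, a group of short probes summarised as 1 signal. Of 22746 probe sets left after 64 controls were set aside, 13513 were paired with 1 gene, which gave 13356 genes. The deposited signals are linear MAS5 values that had been scaled to a shared trimmed mean of 100.01 on each array. Signals of different probe sets depend on the probes as well as on the transcript, so the order of genes below is an order of signals and not of transcript numbers. The floor on each array was the strongest of 27 controls that detect bacterial RNA not added to the samples, at 6.34, 14.3 and 9.19 on replicates 1, 2 and 3. Here and below, values for 3 arrays are given in that order. The 3 arrays limit the precision, and no test was made within this 1 group.

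The array of replicate 2 stood apart in its overall signal. Its median signal was 50.8, against 40.1 and 43.6 on replicates 1 and 3, and its log2 signals had an SD of 2.39 across probe sets, against 2.81 and 2.65. Replicate 2 was the highest array for 56.7% of genes and the lowest for 23.1%. The direction followed the level: replicate 2 lay 0.59 above the mean of replicates 1 and 3 on the log2 scale (median over probe sets) where the mean log2 signal was under 5, and 0.22 below it where that mean was 10 or more. Control probe sets for RNA added during labelling or hybridisation had a median log2 signal of 6.73 on replicate 2, against 7.60 and 7.50. A control probe set for 25S ribosomal RNA read 696.4 on replicate 1 and 13.7 and 26.3 on replicates 2 and 3. The part of these differences in the results below was not tested, and counts of which array was lowest or highest are given beside the same count over all genes and, for the lists, after quantile normalization, which gives the arrays 1 shared distribution.

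Signals of 9252 of 13356 genes (69.3%) exceeded the floor on all 3 arrays, those of 1608 on some and those of 2496 on none. The 69.3% is the share to set beside each count above the floor in the lists and families below. Counted over probe sets, 16798 were above the floor on all arrays. Among the 25 highest signals of 1-gene probe sets, 5 were plastid-encoded and 5 others belonged to the list of nuclear antenna, photosystem and electron transport genes. The annotation used here names few of the strongest probe sets: of the 100 highest signals on these arrays, 22 came from probe sets paired with 1 gene. The 25 genes are thus the highest among those that could be named, and 9 of them are known here by locus alone.

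LHCB4.1, the antenna protein CP29 of photosystem II, gave signals of 3571, 2126 and 3438. PSAE-1, a stromal subunit of photosystem I, gave 3094, 1923 and 2818. ATPC1, the gamma subunit of the chloroplast ATP synthase, gave 2461, 1743 and 2417. On replicate 2 these 3 nuclear genes were lower than on either other array, as were 20 of the 25 (80.0%), against 71.2% of probe sets with a mean log2 signal of 10 or more. After quantile normalization replicate 2 was the lowest for 12 of the 25 (48.0%) and the highest for 12. The shares of probe sets with a mean log2 signal of 10 or more were then 40.7% and 39.4%. Rubisco activase, RCA, which keeps the carbon-fixing enzyme active, varied less, at 3213, 2812 and 3106. The small photosystem II proteins PSBY and PSBW reached mean log2 signals of 11.13 ± 0.34 and 11.04 ± 0.21 (SD, n = 3).

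Among the plastid-encoded genes, psbM, a small photosystem II subunit, read 3066, 2889 and 3207. The ATP synthase genes atpB and atpE, for the beta and epsilon subunits, read 3394, 2419 and 3303 and 2782, 1896 and 2673. The cytochrome b6 gene petB read 2473, 2659.6 and 2545, and psaJ of photosystem I read 1899, 2177 and 2265. The pair atpB and atpE was lowest on replicate 2, whereas petB and psbM differed by 0.11 and 0.15 at most between arrays on the log2 scale.

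Outside photosynthesis, the cytosolic enzymes of sugar breakdown were among the steadiest of the strong signals. GAPC2, a glyceraldehyde-3-phosphate dehydrogenase, read 3091, 2912 and 3105, and TPI, triose-phosphate isomerase, read 2160.2, 2002 and 2199. SAMDC, S-adenosylmethionine decarboxylase of polyamine synthesis, read 2255, 2600.1 and 2783. PRXR1, a class III peroxidase, read 3339, 2635 and 3472. PYK10, the beta-glucosidase of ER bodies, read 3339, 2690.2 and 3257. The highest mean of the 25, 11.71 ± 0.11 (SD, n = 3) on the log2 scale, was that of AT2G45180, which the reference table lists by its locus alone. Widths were small in this set: 19 of the 25 genes differed by under 0.5 log2 between their highest and lowest array, and the widest, LHCB4.1, by 0.75. The last of the 25, psaJ, had a mean log2 signal of 11.04, and the first gene outside, AT4G01150, had 11.02.

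**Figure D1:**
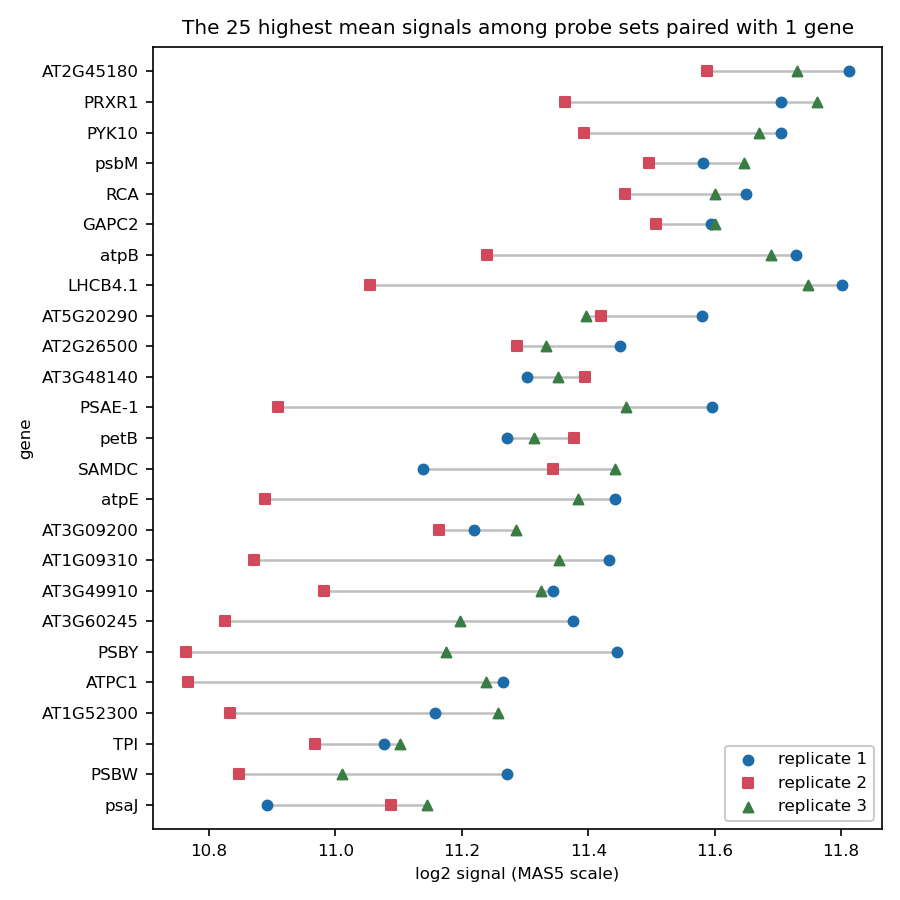
The log2 signal of the 25 genes with the highest mean signal is plotted on each control array, 1 point per array, with a grey line from lowest to highest. The point of replicate 2 is the lowest in 20 of 25 genes (12 after quantile normalization). Among probe sets with a mean log2 signal of 10 or more it was the lowest for 71.2% (40.7% after quantile normalization). All means lie between 11.04 and 11.71.

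The nuclear genes of the light reactions were above the floor in 19 of 19 cases, against 69.3% of all genes. Their median log2 signal was 9.40, 8.98 and 9.32. Replicate 2 was the lowest array for 16 of the 19, against 23.1% of all genes and 57.0% of probe sets with a mean log2 signal of 9 to 10. After quantile normalization it was the lowest for 15, against 37.0% of all genes. The list spans a wide range of levels, from the antenna gene LHCB4.2 (2211, 1555 and 1933) and the photosystem I gene PSAN (2232, 1369 and 1989) to ATPC2, the minor isoform of the ATP synthase gamma subunit, at 45.6, 34.5 and 34.7. LHCB4.3, another CP29 gene, read 75.7, 129 and 96.7, highest on replicate 2 where its relatives were lowest. Its mean log2 signal was lower than theirs, at 6.62. Replicate 2 was the highest for 54.3% of probe sets above the floor with a mean of 5 to 7. NdhS and NdhL, nuclear subunits of the NADH dehydrogenase-like complex, had ranges of 0.91 and 0.72 log2, the former the widest of the list.

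Genes that assemble and service the photosystems were also on: 16 of 17 were above the floor on all arrays, with a median of 7.03, 6.58 and 6.86. PSB27, an assembly factor of photosystem II, read 1719, 1296 and 1707, and CLPP4, a subunit of the plastid Clp protease, read 619, 444 and 649. CRR28, a factor of the NADH dehydrogenase-like complex, was above the floor on 2 arrays.

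All 7 measured genes of carbon fixation and photorespiration were above the floor, with a median of 10.24, 10.16 and 10.37. PRK, phosphoribulokinase, read 1780.2, 1524 and 1884. SBPASE, sedoheptulose bisphosphatase, read 1213, 1140.5 and 1324. HPR, hydroxypyruvate reductase of photorespiration, read 1262, 1424 and 1325. These 3 enzymes differed by 0.31 log2 or less between arrays.

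Of 11 genes of chlorophyll and haem synthesis, 10 were above the floor, with a median of 8.30, 7.76 and 8.48. Replicate 2 was the lowest array for 9 of the 11 with and without quantile normalization, against 37.0% and 23.1% of all genes. Without that normalization the share was 44.6% among probe sets above the floor with a mean log2 signal of 7 to 9. PORB, the light-dependent protochlorophyllide oxidoreductase of greening tissue, read 1484, 388 and 1313, the widest range of the list at 1.94 log2. CHLI2, a subunit of magnesium chelatase, read 257, 112 and 225. CHLM, the magnesium protoporphyrin methyltransferase, was narrower at 892, 699.9 and 909. HEMA3, for a glutamyl-tRNA reductase, was below the floor on every array while HEMA2 read 61.1, 73.5 and 60.3.

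Glycolysis, the citrate cycle and respiration had 23 of 28 genes above the floor (82.1%), against 69.3% of all genes. The median of the list was 7.68, 7.82 and 7.71. The cytosolic isocitrate dehydrogenase cICDH read 2254, 1594 and 2084, and the cytochrome c gene CYTC-1 read 1131, 1106 and 1272. ICL, isocitrate lyase of the glyoxylate cycle by which oil-storing seedlings use their reserves, read 1.24, 1.71 and 1.18, below the floor on all arrays. NDB4 and IDH-III were also below it on all arrays. The alternative NADH dehydrogenase NDB2 read 47.8, 102 and 54.9, the widest range among the members above the floor, at 1.09 log2.

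**Figure D2:**
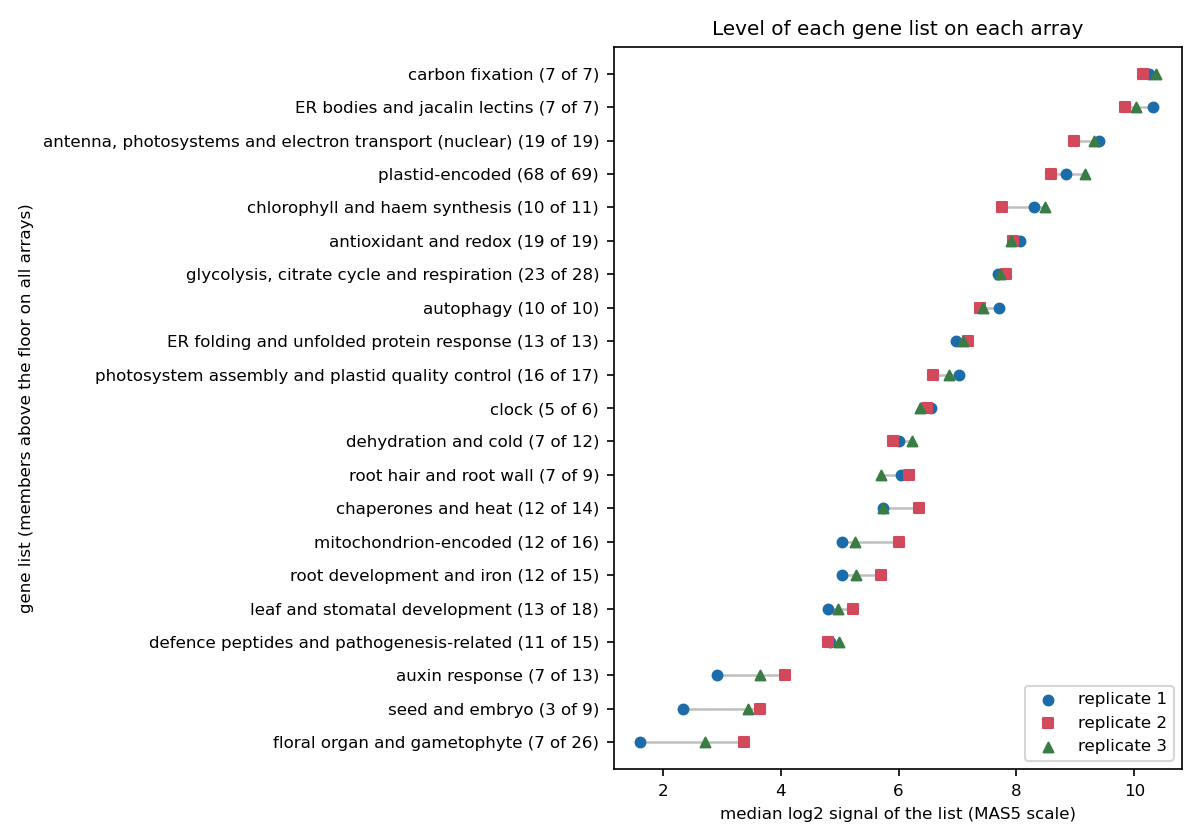
The median log2 signal of each of 21 gene lists is plotted on each control array, with the number of measured members above the floor on all arrays in parentheses. Lists of photosynthesis and ER bodies lie at the top and those of seeds and flowers at the bottom, and replicate 2 is the highest array for 10 lists and the lowest for 9, or for 6 and 9 after quantile normalization.

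Some groups had every member above the floor, against 69.3% of all genes, and are named here because they were complete. Above the floor on all arrays were 12 of 12 UBP deubiquitinating enzymes, 11 of 11 PRA vesicle-trafficking proteins, 8 of 8 aldehyde dehydrogenases, 7 of 7 tubulins and 10 of 10 autophagy genes. TUA6, an alpha-tubulin, read 1190.3, 952 and 1270.4, and ATG8F read 697, 516 and 617. All 13 genes of protein folding in the endoplasmic reticulum were above the floor, with a median of 6.97, 7.17 and 7.09. CRT1b, a calreticulin, read 513, 547 and 563, and BZIP60, a transcription factor of the unfolded protein response, read 153, 157 and 165, so neither differed by over 0.13 log2. Of 36 symbol families with at least 6 genes, 7 had every member above the floor.

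In other families some members were below the floor. Small cysteine-rich LCR peptides had 3 of 8 above the floor, with LCR69 at 938, 921 and 1074 and LCR68 at 804, 932 and 825, while 5 members were below it on every array. Beta-glucosidases named BGLU had 9 of 20, and BGLU44 at 1389.7, 592 and 977 stood over the rest of those so named. The beta-glucosidase PYK10, listed under another symbol and not counted here, was stronger, at 3339, 2690.2 and 3257. UDP-glycosyltransferases had 29 of 47 above the floor, cytochromes P450 14 of 23 and serine carboxypeptidase-like proteins 17 of 29, shares of 61.7%, 60.9% and 58.6% near the 69.3% of all genes. UGT74B1, which acts in glucosinolate synthesis, read 483, 393 and 403, and BCAT4, an enzyme of the methionine-derived branch of that pathway, read 1294, 1049 and 1205.

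SWEET sugar transporters were above the floor in 11 of 14 cases (78.6%), against 69.3% of all genes. SWEET11, which exports sucrose in leaf veins, read 787, 968 and 870.1, and SWEET17, a fructose transporter of the vacuole, read 413, 371 and 401. Glutathione S-transferases had 12 of 14 above the floor (85.7%), with GSTU20 at 1162, 825 and 1150.5. All 19 genes of the antioxidant and redox list were above it. GRXC2, a glutaredoxin, read 887, 703 and 1029, and GME, an enzyme of ascorbate synthesis, read 612, 680.4 and 639. The stromal and thylakoid ascorbate peroxidases SAPX and TAPX read 274, 291 and 348 and 198, 127 and 184. The copper chaperone for superoxide dismutase, CCS, was wider at 623, 247 and 492.

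Root and leaf genes were above the floor at a share near that of all genes, and flower and seed genes at a lower share. The 3 lists of root hair, root development and leaf development held 32 of 42 members above the floor on all arrays (76.2%), and the lists of floral organs and of seeds held 10 of 35 (28.6%), against 69.3% of all genes. The set of textbook markers that could be read was small: of 403 genes first listed by locus, 53 were measured by a 1-gene probe set, and the lists of root meristem and stele, seed storage, aquaporin, nitrogen and lipid transfer genes had none. In whole plants, fewer cells of a type and less RNA per cell cannot be told apart.

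ER bodies gave the strongest of the root-linked signals. NAI2, which builds them, read 1277, 875 and 1039.8, and NAI1, the transcription factor that switches on PYK10 and NAI2, read 102, 100.3 and 90.2. The jacalin-related lectins JAL34 and JAL33 read 2438, 1474 and 2039 and 1389, 949 and 1329. All 7 members of this list were above the floor. PYK10 and its lectins are best known from roots but are also made in the hypocotyl and cotyledons of seedlings, so the list does not mark roots alone.

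Genes of root hairs gave moderate signals. EXPA7 and EXPA18, expansins made in root hair cells, read 36.2, 63.3 and 52.1 and 65.7, 72.2 and 61.5. GH9C1, a cellulase of root hairs, read 69.9, 104 and 62.9. XTH18, XTH19 and XTH20, wall-modifying transglycosylases of the root, were above the floor on all arrays, while XTH21 and XTH26 were above it on 2. HRGP1, a hydroxyproline-rich wall protein, was the strongest at 283, 405 and 234. Replicate 2 was the highest array for 7 of the 9 genes, against 56.7% of all genes, and for 5 after quantile normalization, against 39.0%. Replicate 3 was the lowest for 5 of the 9 without and with that normalization, against 27.6% and 29.8% of all genes.

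Of 15 genes of root development and iron supply, 12 were above the floor (80.0%), against 69.3% of all genes. The bHLH transcription factors of the iron response ILR3 and bHLH104 read 362, 473 and 469.8 and 177, 182 and 214, and bHLH115 read 179, 181 and 191. BHLH101, an iron-deficiency factor, read 1.06, 1.21 and 1.39, below the floor on every array. LHW, a regulator of root vascular cells, read 98.1, 135 and 93.1, and LPR2, a root tip oxidase of the phosphate response, read 158, 186 and 177. LBD16, which acts at the start of lateral roots, read 33.0, 58.6 and 39.0, and its relative LBD29 was above the floor on 2 arrays. CLE40, a peptide of the root tip, was above it on 1. NRT2.5, a nitrate transporter of nitrogen-starved plants, stayed near the floor at 7.74, 24.0 and 16.8.

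Leaf and stomatal genes were above the floor in 13 of 18 cases (72.2%), near the 69.3% of all genes. STOMAGEN, the peptide by which mesophyll raises stomatal number, read 102, 148 and 102. The 3 bHLH factors of the stomatal lineage differed: FMA, of the last step, read 38.1, 41.2 and 47.9, SPCH, of the first, read 3.58, 23.1 and 13.9, and MUTE, between them, read 4.02, 1.26 and 8.23. FMA was thus above the floor on all arrays, SPCH on 2 and MUTE on none. YAB3 and YAB5, factors of the lower leaf side, read 79.3, 59.6 and 92.3 and 65.9, 39.7 and 53.5, and PHV, a factor of the upper side, read 67.0, 80.0 and 75.7. AN, which shapes leaf cells, was the strongest at 179, 126 and 112. CLV3, the peptide of the shoot stem cells, was below the floor on all arrays at 1.33, 2.59 and 1.38. TRY, an inhibitor of trichome fate, was above it on 1 array.

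Flower, pollen and egg genes were largely unread. Of 26, 15 were below the floor on every array, among them AMS of the tapetum (0.404, 1.79 and 0.244), UFO of the floral meristem, SPL of sporogenesis (1.33, 2.48 and 1.48), the pollen tube kinases ANX1 and ANX2, the pollen actin ACT12, the sperm histone MGH3 and the egg cell genes EC1.2 and EC1.5. The 7 members above the floor on all arrays included ACT11, PLIM2b, ALC, EMS1 and ROXY2. ACT11, an actin of reproductive organs, was the strongest at 70.2, 77.8 and 81.9, and PLIM2b, an actin-binding protein of pollen, read 68.1, 74.4 and 56.2. INO, a factor of the ovule coat, read 2.93, 41.6 and 20.5 and was above the floor on 2 arrays.

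Of 9 seed and embryo genes, 4 were below the floor on all arrays: BBM of the embryo, AtLEA4-1, IKU2 of the endosperm and BAN of the seed coat. IKU1 read 45.7, 104 and 98.7, BETA-VPE, a vacuolar processing enzyme, read 16.6, 51.3 and 29.9, and OLEO3, an oil-body protein, read 11.5, 23.5 and 17.1. Replicate 1 was the lowest array for all 9 seed genes and for 17 of the 26 flower genes, against 49.3% of all genes. After quantile normalization it was the lowest for 7 and 9 of them, against 33.2%. Values this low on a MAS5 scale spread widely, and replicate 1 had the lowest floor of the 3 arrays.

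**Figure D3:**
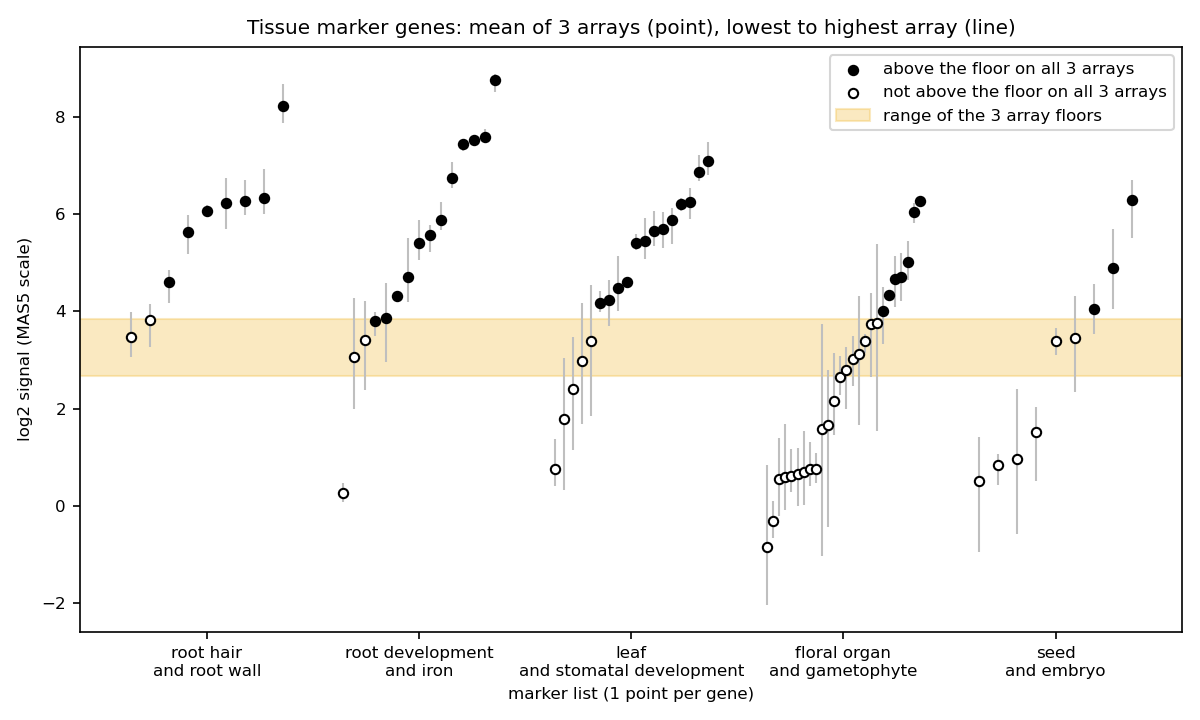
Each point is the mean log2 signal of 1 marker gene over the 3 control arrays and each line runs from its lowest to its highest array. Filled points were above the floor on all arrays, and the shaded band spans the 3 floors. Root and leaf markers lie mostly over the band, with 32 of 42 filled. Flower and seed markers lie mostly in or under it, with 10 of 35 filled. Over all genes, 69.3% were above the floor on all arrays.

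Of 15 defence peptides and related genes, 11 were above the floor (73.3%), a share near the 69.3% of all genes. OSM34, an osmotin of the PR-5 kind, was the strongest at 1181, 780.2 and 1141, and BIK1, a kinase of immune receptors, read 126, 125 and 161. The jasmonate-responsive defensins PDF1.2 and PDF1.2b read 22.3, 1.65 and 14.1 and 101, 23.8 and 99.1. Both were lowest on replicate 2, as were 7 of the 15 genes, against 23.1% of all genes. Highest on replicate 2 were 5 of the 15, against 56.7%, among them the thionin THI2.1 at 12.4, 24.9 and 7.11. After quantile normalization 9 of the 15 were lowest there and 5 highest, against 37.0% and 39.0% of all genes. In the dehydration and cold list 7 of 12 were above the floor (58.3%). They were led by DI19 (2068, 1482 and 1515) and the dehydrin COR47 (1236, 527 and 1069). The late embryogenesis genes LEA, LEA4-5 and LEA18 were below the floor on all arrays. COR27, which is regulated by cold and by the clock, read 40.7, 4.95 and 50.3. GI, a clock gene of the evening, read 202, 176 and 282.

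The median range between highest and lowest array was 0.36 log2 over 6701 probe sets that were above the floor on all arrays with a mean signal of at least 100. Among these, 306 (4.57%) varied by 1 log2 or more, that is 2-fold, and 36 varied at least 4-fold. The number that differed 2-fold was 250 between replicates 1 and 2, 128 between replicates 2 and 3 and 69 between replicates 1 and 3, and Pearson's r across these probe sets was 0.914, 0.938 and 0.962 for the same pairs. Without replicate 2, 67 probe sets varied 2-fold. Replicate 2 was the array farther from the middle value for 186 of the 306, 129 of them low and 57 high. Quantile normalization gave 134 low and 65 high. Median centring gave 421 low and 24 high, or 94.6% low where the deposited signals gave 69.4%.

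Of the 306 probe sets, 148 were paired with 1 gene, and 45 of these carried a gene symbol. At the threshold itself, AT2G43160 lay just inside at a range of 1.00 log2 and AT3G14100 just outside at 0.999. The 25 widest were 18 nuclear and 7 plastid genes, and both kinds had their own pattern. For 17 of the 18 nuclear genes replicate 2 was the array that stood apart, low for 11 and high for 6, while replicates 1 and 3 differed by 0.32 log2 in the median and by 0.90 at most. For the 7 plastid genes it was replicate 1 or replicate 3.

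The nuclear genes low on replicate 2 included AT5G62360 (253, 24.5 and 264), AT3G16530 (589, 95.0 and 465), AT2G25510 (950.2, 155 and 508), ECS1 (1228, 316 and 703) and PORB. The genes just named all have signals of over 250 on replicates 1 and 3, and replicate 2 is below both others. The nuclear genes high on replicate 2 included the widest of all, AT4G19430, at 34.0, 494 and 53.7, or 14.5-fold. AT1G65490 read 141, 699 and 157, and AT5G12110 read 152.5, 725 and 152.4, nearly equal on replicates 1 and 3. STZ, a zinc finger repressor induced by cold, salt and wounding, read 84.7, 252 and 54.1. AT4G16490, the single exception among the nuclear genes, was low on replicate 1, at 45.9, 149 and 181.

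Of 14 genes of the chaperone and heat list, 12 were highest on replicate 2 and 2 were lowest there. Over all genes 56.7% were highest on replicate 2. Quantile normalization gave 11 of 14, against 39.0% of all genes, and median centring 8 of 14, against 37.8%. AT5G48570, 1 of its members, read 48.5, 336 and 39.1, or 8.60-fold. Hop3, a co-chaperone that links Hsp70 and Hsp90, read 12.9, 69.6 and 16.8, HSA32, a heat-tolerance protein, read 39.3, 77.6 and 33.3, and Hsp70-2 read 66.5, 148 and 79.3. The related genes differed less: Hop1 read 120.2, 147 and 128, and Hop2 read 184, 241 and 212. Fes1B and Fes1C, exchange factors of Hsp70, were lowest on replicate 2. The median of the list was 5.73, 6.34 and 5.73, while the median of all genes was 4.94, 5.35 and 5.08.

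Other genes with a symbol among the 148, chosen for their known roles after their values were seen, are given next. EXLA1 and EXPA4, expansins, read 143, 266 and 109 and 69.3, 155 and 109. FATB, a thioesterase of fatty acid synthesis, read 114, 318 and 281, low on replicate 1. UGT88A1 (606, 301 and 466), BGLU44, COR47, CCS and CHLI2 were all lowest on replicate 2.

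**Figure D4:**
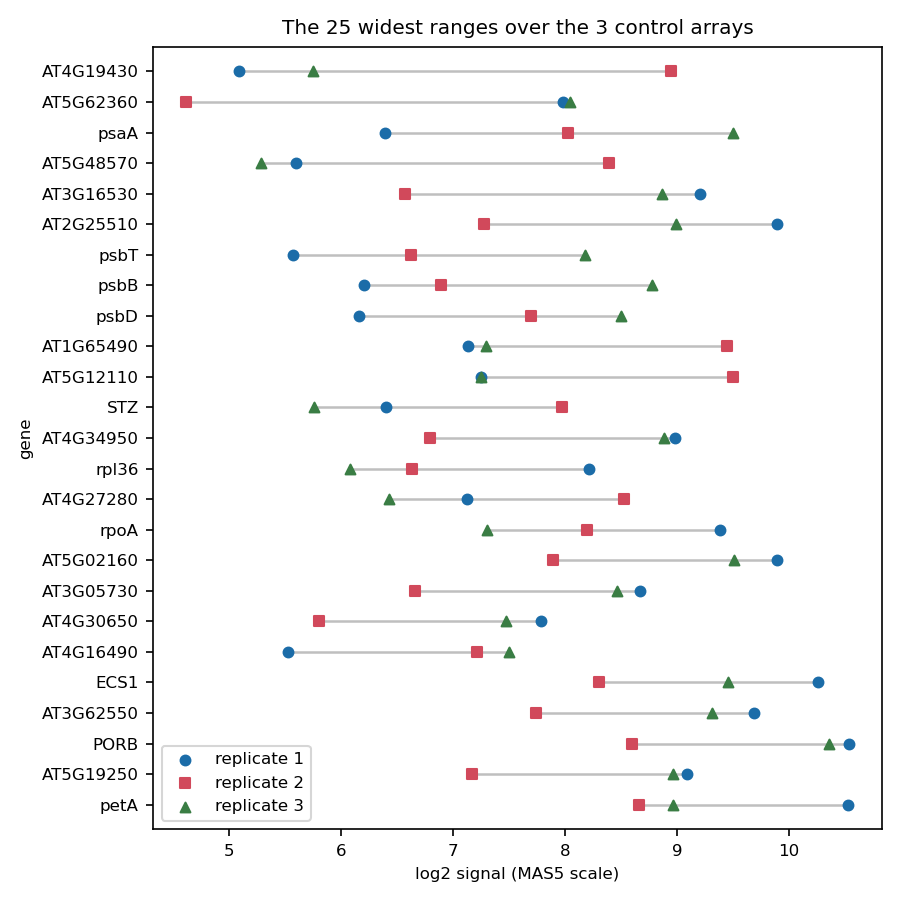
The log2 signal of the 25 genes with the widest range is plotted on each control array, with a grey line from lowest to highest. Replicate 2 is the array farthest from the middle one in 17 of the 18 nuclear genes, where replicates 1 and 3 differ by up to 0.90 log2, and the 7 plastid genes have replicates 1 and 3 at opposite ends or replicate 1 alone.

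Plastid genes were uneven between arrays. Of 69 measured, 68 were above the floor on all arrays, ndhF being the exception, and the list median was 8.84, 8.59 and 9.16. Of the 52 that passed the same filter, 17 varied 2-fold or more (32.7%), against 4.45% of all genes that passed it, and their median range was 0.79 log2. No nuclear gene of the light reactions did so among 18 that passed, too few to set apart from the 4.45% of all genes. The median range of these 18 was 0.59 log2, against 0.36 over all probe sets that passed. The labelling reaction starts from poly(A) tails, which plastid transcripts mostly lack or carry only briefly, so a plastid signal does not measure the amount of transcript in the way a nuclear one does. Replicate 3 was the highest array for 43 of the 69 (62.3%), against 21.7% of all genes, and for 38 after quantile normalization, against 26.9%. Replicate 1 was the lowest for 44 (63.8%), against 49.3% of all genes, and for 42 after quantile normalization, against 33.2%. After median centring replicate 1 was the lowest for 27 (39.1%), near the 34.3% of all genes. Replicate 2 was then the lowest for 32 (46.4%), against 39.8%. The 25S ribosomal RNA control was high on replicate 1, and its part in this was not tested.

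In some plastid clusters every member had the same lowest or the same highest array. Over all 69 plastid genes, replicate 3 was the highest for 62.3% and replicate 1 the lowest for 63.8%. Median centring gave 63.8% and 39.1%, with replicate 2 the lowest for 46.4%. The orders within clusters, here and in the next paragraph, are given for the deposited signals alone. Where arrays differ little, such an order can depend on the scaling. In the cluster that runs from ndhH to ndhD through ndhA, ndhI, ndhG, ndhE and psaC, all 7 genes were lowest on replicate 1 and highest on replicate 3. The range was 0.37 log2 for ndhI (1695, 1835 and 2191) and 2.33 for ndhH (17.2, 58.5 and 86.7). All 4 genes of the ATP synthase cluster atpI, atpH, atpF and atpA were highest on replicate 3, with atpF at 232, 343 and 817. The 4 genes psbE, psbF, psbL and psbJ, small proteins of photosystem II, differed from these and were all lowest on replicate 3, psbE at 1521, 1155 and 830.1 and psbJ at 1261, 1323 and 725. All 4 of psaI, ycf4, cemA and petA were lowest on replicate 2, and the last 3 were highest on replicate 1, with petA, which encodes cytochrome f, at 1479, 405 and 499.5.

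In other clusters the sizes or the order differed between members. All 5 genes from psbB to petD were lowest on replicate 1, by very different amounts. The photosystem II gene psbB, for the antenna protein CP47, and its neighbour psbT read 73.6, 119 and 437 and 47.6, 98.9 and 291, ranges of 5.94-fold and 6.10-fold, while petB in the same cluster differed by 0.11 log2. The photosystem I reaction centre gene psaA had the widest range of any plastid gene, 3.11 log2, at 83.8, 261 and 724, and its partner psaB read 1550.3, 1103 and 1718. The photosystem II gene psbD, for the D2 protein, read 71.7, 208 and 361. At the far end of the ribosomal protein cluster rpl36 and rpoA, which encode a ribosomal protein and the alpha subunit of the plastid RNA polymerase, read 297, 99.5 and 67.7 and 668, 293 and 158, highest on replicate 1. Their neighbours rpl16 and rpl14 were lowest on replicate 1, rpl16 at 339, 504 and 672. The gene psbA, for the D1 protein, read 493, 152 and 314, and rbcL, for the large subunit of Rubisco, read 93.1, 117 and 206.

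**Figure D5:**
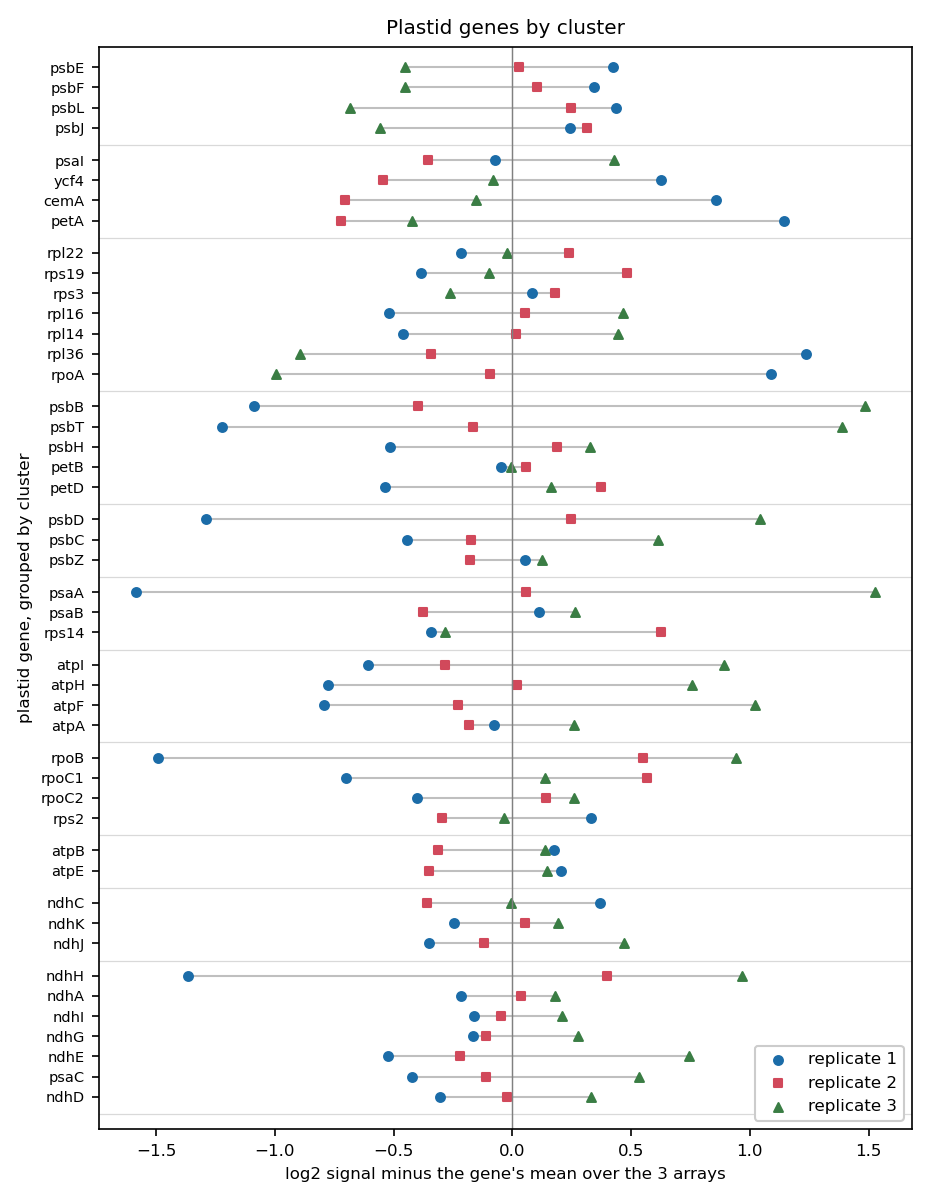
For each plastid gene in 11 clusters, the deposited log2 signal on each control array is plotted as its distance from the mean of the gene over the 3 arrays. The 7 genes from ndhH to ndhD have replicate 1 at the left and replicate 3 at the right, and the 4 genes from psbE to psbJ have replicate 3 at the left. The genes rpl36 and rpoA have replicate 1 at the right, and their neighbours rpl16 and rpl14 have it at the left. In the same cluster rps3, like rpl36 and rpoA, has replicate 3 at the left.

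Mitochondrial genes gave lower signals than plastid genes. Of 16 measured, 12 were above the floor on all arrays (75.0%), against 69.3% of all genes. The median of the 16 was 5.03, 6.01 and 5.27, and that of all genes 4.94, 5.35 and 5.08. Replicate 2 was the highest array for 12, or for 10 after quantile normalization, against 56.7% and 39.0% of all genes. The NADH dehydrogenase gene nad4 read 92.3, 265 and 142, and the cytochrome oxidase gene cox2 read 24.5, 65.3 and 21.3. The same labelling limit applies to them. The cytochrome oxidase gene cox1, at 119, 118 and 118, was by contrast among the steadiest signals of the arrays.

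The 10 steadiest 1-gene probe sets had SDs between 0.0013 and 0.014 log2 over 3 arrays. SEC22, a membrane fusion protein of the secretory pathway, read 209.8, 209.8 and 209.5, and HTB1, a histone H2B, read 109, 109.8 and 109.8. An SD over 3 arrays is imprecise, and these were the smallest of 3296. Of the 5 measured genes of a list of reference genes in common use, PEX4 and the dehydrogenase GAPC2 each had a range of 0.09 log2, and AT4G34270 had the widest, 0.33.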

How the data were processed

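Probe set signals of 3 DMF control arrays of 6 were used; the other 3 entered no step. The deposited intensity values are linear; the submitters' processing notes name MAS5 and GCOS as the authors' tools. Versions and scan settings are not given in the sources used here. Without its highest and lowest 2%, each array averaged 100.01, so the arrays had been scaled before deposit. MAS5 subtracts mismatch signal, which spreads low values on a log scale, and scaling cannot show a change in total RNA. No detection calls were used.

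Signals were taken to log2 without further normalization or offset. The 64 AFFX controls were left out. Of 22746 probe sets, the platform annotation pairs 13513 with 1 gene and 503 with several, and 8730 are unnamed here. Symbols came from the TAIR10.1 reference table, which matched 13436. The probe set with the highest mean stood for a gene. Of 146 genes with several probe sets, 62 had probe sets at least 4-fold apart in mean signal. No coordinates are given, since no build is named, and no sequences were used.

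The members and lists were chosen with earlier results of these data known. The 20 symbol lists, the plastid list, the families and the plastid clusters were assembled from the annotation after 23 lists by locus had matched few genes. Named genes were the 25 highest means, the 25 widest ranges among probe sets above the floor with a mean of at least 100, the 10 smallest SDs, up to 5 highest and 3 widest members of each list, and any measured root, shoot, seed or flower marker; others named beside them were chosen after their values were seen. With 1 group no test was made. Results of 2 symbol families are not reported here. Alternatives were quantile normalization, median centring, an offset of 16, other filters and floors, only 1-gene probe sets, other ways to combine probe sets, and leaving out each array. Python 3.11.15, numpy 2.4.6, pandas 2.3.3 and matplotlib 3.10.9 were used.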

Additional observations from a re-analysis of the deposited data

How the results depend on the processing

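Signals alone carry no counting depth, and the 3 arrays set the precision. Low MAS5 signals are the least certain, since the floor differed 2-fold and more between arrays. No paired analysis was possible because the results come from 1 group and from no test. The number of probe sets above the floor on all arrays, 16798, stayed within 1.5 times under a floor 2 times as high, a fixed floor of 20 and with each array left out (17044 to 17551), and was 9351 over 1-gene probe sets alone, by construction. The 25 highest signals shared 23 to 24 genes with the 25 found when 1 array was left out. The number varying 2-fold, 306, was 613 with median centring, 684 with a mean signal of at least 50, 145 with at least 200, 148 over 1-gene probe sets and 67 to 261 with 1 array left out, lowest without replicate 2; a range over 2 arrays is narrower by construction. Quantile normalization and the offset of 16 kept it within 1.5 times. The count of 2-fold differences between replicates 1 and 2, 250, was 551 with median centring, 555 at a mean of 50, 127 at 200 and 123 over 1-gene probe sets. Between replicates 1 and 3, 69 became 170, 30 and 35 under the last 3 of these, and between replicates 2 and 3, 128 became 205, 253, 64 and 60 in the same order. Of the 25 widest ranges, 17 were under 1 log2 without replicate 2, 5 without replicate 1 and 1 without replicate 3, and none under the 3 other scalings.

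List levels, as the mean over arrays of the median log2 signal, moved by more than 1 SD only for lists of low signal and only in 2 settings among the 9 tissue, organelle and heat lists. With the offset of 16 and with only members above the floor, the root hair list went from 5.97 to 6.30 and 6.23, the root development list from 5.34 to 5.83 and 5.74, and the leaf list from 5.00 to 5.59 and 5.61. In the same settings the flower list went from 2.57 to 4.49 and 4.75, and the seed list from 3.14 to 4.66 and 4.88. Both settings raise low values by construction. Among the other 12 lists, 13 values moved by over 1 SD and 47 did not. With 1 array left out the levels lay between 9.15 and 9.36 for the antenna list, 8.72 and 9.003 for plastid genes, 5.73 and 6.04 for chaperones, 5.15 and 5.64 for mitochondrial genes, 5.87 and 6.11 for root hairs, 5.17 and 5.49 for root development, 4.88 and 5.10 for leaves, 2.16 and 3.05 for flowers, and 2.89 and 3.55 for seeds.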
